A study of Mus musculus with 4 samples.

Results

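Atf4 and 9 of its target genes in the integrated stress response were followed in mouse MC38 tumours. The 10 genes were taken by name from a fixed list (Atf4, Ddit3, Trib3, Chac1, Slc7a11, Asns, Phgdh, Psat1, Sesn2 and Ddit4), out of 54115 genes with a transcript in the files, and all 10 were among the 18758 genes tested. MC38 is a mouse colon adenocarcinoma cell line that was injected into mice to form tumours. Both groups carried these tumours and received an intraperitoneal injection on each of 10 days. The saline group (2 libraries) received saline, and the vanoxerine group (2 libraries) received vanoxerine, an inhibitor of the dopamine transporter, at 25 mg/kg. The labels give no strain, sex or age. Nor do they state whether each library is a different mouse, so the p-values reflect library-to-library spread, which could be purely technical.

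In the integrated stress response, kinases that sense amino acid shortage, unfolded proteins, viral RNA or haem shortage phosphorylate the translation initiation factor eIF2alpha. Overall translation then drops, while the Atf4 mRNA, which carries short upstream reading frames, is translated more. The ATF4 protein pairs with C/EBP factors and switches on genes for amino acid uptake and synthesis, glutathione metabolism and growth restraint. Since ATF4 is controlled largely at translation, the level of its mRNA does not report the level of the protein, which was not measured here.

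ATF4 and C/EBP proteins bind together to composite elements, whose core letters are TGATGNAA. These letters were searched on both strands in promoter windows that run from 250 bases before to 50 bases after a RefSeq start site (GRCm38.p6). All 10 genes had a window, with 11 windows between them, and 4 of the genes held the letters. Counted by window and not by gene, 3.97% of all 32851 windows held them. The windows around the matches are shown because these 4 genes did not move alike in the tumours. Capitals mark the matched letters, on either strand. Positions are counted from the RefSeq start. Chac1 had its match 193 to 186 bases before it, and Slc7a11 had a pair at 66 to 59 and 47 to 40 bases before it. Asns had its match 23 to 16 bases before that start, and Trib3 had its match 15 to 22 bases past it. The gene coordinates given below are from GENCODE, and their starts differ from these. By them the Asns match lies inside the gene, and the Trib3 match lies before the gene's start. A pair of matches in the same window was found in 0.07% of all windows.
Chac1 (chr2:119351003-119351102, forward strand): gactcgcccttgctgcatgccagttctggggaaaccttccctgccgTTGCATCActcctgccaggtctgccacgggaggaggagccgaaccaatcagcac
Slc7a11 (chr3:50443617-50443716, reverse strand): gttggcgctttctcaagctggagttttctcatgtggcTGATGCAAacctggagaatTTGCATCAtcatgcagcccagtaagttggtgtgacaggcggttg
Asns (chr6:7693210-7693309, reverse strand): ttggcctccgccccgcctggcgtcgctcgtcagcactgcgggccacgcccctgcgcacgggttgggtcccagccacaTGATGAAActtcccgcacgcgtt
Trib3 (chr2:152344028-152344057, reverse strand): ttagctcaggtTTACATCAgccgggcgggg
A match is a description of the letters and not a site shown to be bound, and the other 6 genes held none in this window.

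Of the 10 genes, 6 were lower in vanoxerine tumours than in saline tumours and 0 were higher, at an adjusted p under 0.05 in edgeR's quasi-likelihood test. Among all genes tested, 15.9% were called lower, 21.0% higher and 36.9% in either direction. CPM is the read count per total of mapped reads, scaled to a common library size with TMM factors. All 10 genes averaged 10 CPM or more, and 22.0% of the 9871 genes that did so were called lower. The genes that fell were Trib3, Ddit4, Ddit3, Asns, Phgdh and Atf4, and their saline levels were between 2.14-fold and 1.27-fold the vanoxerine levels. Psat1, Chac1, Sesn2 and Slc7a11 did not pass the test. On the CPM scale the libraries of the groups did not overlap for 9 of the 10 genes, 8 of them lower and 1 higher in vanoxerine. The same held for 70.7% of all genes tested, with 34.9% lower. The median log2 fold change of the 10 genes was -0.46, and that of all genes tested was -0.01. In bulk tumours, a smaller number of cells that express a gene and less RNA per cell cannot be told apart.

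**Figure D1:**
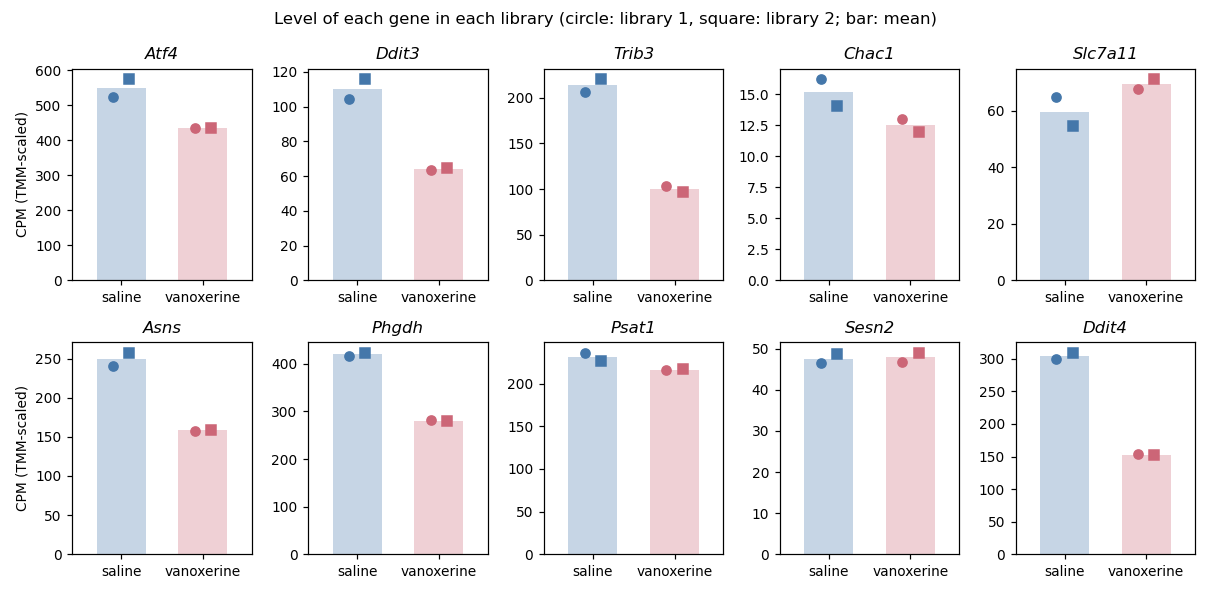
Level of each of the 10 genes in each library, in CPM on a linear axis that starts at 0, with saline in blue and vanoxerine in red; circles and squares are library 1 and library 2 and bars are group means. Trib3 and Ddit4 were at means of 214 and 305 CPM in saline and at most 103 and 154 CPM in vanoxerine, whereas the Sesn2 libraries of the groups overlapped.

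Depth and composition are given once for the whole series. The libraries held 67289273 to 75748162 estimated reads, and mitochondrial genes took 2.59% to 3.49% of the assigned reads. Macrophage markers rose in 13 of 13 genes, with a summed level of 1423 to 1463 CPM in saline and 5637 to 5653 CPM in vanoxerine. Erythroid markers fell in 7 of 7 (13970 to 15080 CPM in saline, 5902 to 6248 CPM in vanoxerine). Fibroblast markers fell in 8 of 10 and rose in 1 (728 to 743 CPM, then 552 to 556 CPM). Of 9 endothelial markers 6 fell and 1 rose (153 to 159 CPM, then 143 to 149 CPM). Much of these 2 vanoxerine sums came from the gene that rose. Thy1, in the fibroblast list, went from 204.8 and 226.3 CPM to 286.3 and 291.7 CPM. Pecam1, in the endothelial list, went from 52.85 and 54.35 CPM to 98.04 and 98.32 CPM. The median log2 fold changes of the 2 lists were -0.965 and -1.651. Neutrophil markers fell in 5 of 8 (1011 to 1062 CPM, then 575 to 582 CPM), and T cell markers fell in 3 of 9 and rose in 1 (543 to 558 CPM, then 472 to 489 CPM). Epithelial markers were low throughout, at 18.4 to 21.7 CPM in sum in saline and 36.4 to 38.1 CPM in vanoxerine, with 3 of 8 tested genes higher and 1 lower. Of the 13 epithelial genes, 9 averaged under 1 CPM over the 4 libraries, and the gut identity gene Cdx2 had no reads in any library. These markers move with every difference reported for the stress genes, and their part in those differences was not tested.

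The transcription factors come first. Atf4 (ENSMUSG00000042406, chromosome 15, 80255184 to 80257541, forward strand, GRCm38) was the most abundant of the 10 genes per length, with Ddit3 counted on its main gene identifier alone. It stood at 523 and 576 CPM in the saline libraries and at 434 and 435 CPM in the vanoxerine libraries. Both vanoxerine libraries lay below both saline libraries, which themselves differed by more than the vanoxerine pair. The log2 fold change was -0.34 ± 0.05 (SE, edgeR adjusted p = 0.00519). This call was lost without vanoxerine replicate 1 (-0.32, adjusted p = 0.0610), without vanoxerine replicate 2 (-0.33, adjusted p = 0.0572) and with log2(TPM + 1) (-0.10, adjusted p = 0.227), where TPM is the deposited level per transcript length (transcripts per fixed total).

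Ddit3 encodes CHOP, a factor of the same bZIP class that ATF4 induces and that takes part in stress-induced cell death (ENSMUSG00000025408, chromosome 10, 127290774 to 127296288, forward strand). Its libraries were at 105 and 116 CPM in saline and 63.3 and 64.5 CPM in vanoxerine, so the groups did not overlap. The log2 fold change was -0.79 ± 0.06 (edgeR adjusted p = 3.78e-04), and the call held under each of 16 alternatives. These include the same fit read at an adjusted p under 0.1, where no call could be lost. The end of Ddit3 overlaps Mars, the methionyl-tRNA synthetase gene on the opposite strand, and whether reads were counted by strand is not stated in the labels. Mars was at 108 and 120 CPM in saline and 97.8 and 97.3 CPM in vanoxerine, a log2 fold change of -0.23 ± 0.06 (edgeR adjusted p = 0.0334) that was not called without vanoxerine replicate 1 (-0.22) or 2 (-0.21).

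A second gene identifier (ENSMUSG00000116429) also carries the symbol Ddit3 and lies within the first. Its only transcript is 105 bases long and received 37 and 105 reads in saline and 52 and 48 reads in vanoxerine. Because TPM divides by a very short effective length, these few reads became 127 and 377 TPM in saline and 233 and 223 TPM in vanoxerine, more than the main Ddit3 gene had in each of the 4 libraries. The main gene stood at 126 and 136 TPM in saline and 89.9 and 90.4 TPM in vanoxerine. When TPM was summed by symbol over both identifiers, Ddit3 was at 252 and 512.5 TPM in saline and 323 and 314 TPM in vanoxerine, the groups overlapped, and the call was lost (-0.18 ± 0.37 on the log2(TPM + 1) scale, limma adjusted p = 0.763). With reads summed over both identifiers the value was -0.78 (edgeR adjusted p = 4.48e-04). Both sums were chosen after the data were seen.

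Trib3 encodes a pseudokinase that binds ATF4 and restrains it, and it also binds the kinase AKT (ENSMUSG00000032715, chromosome 2, 152337422 to 152344032, reverse strand). It was at 206.5 and 221 CPM in the saline libraries and at 103 and 97.0 CPM in the vanoxerine libraries. Each vanoxerine library was below each saline library by a wide gap compared with the spread in either group. The log2 fold change of -1.10 ± 0.06 was the largest fall among the 10 genes (edgeR adjusted p = 8.3e-05). A called fall of 1 log2 unit or more was seen for 3.26% of all genes tested, and Trib3 was among them. The call held under each of 16 alternatives, with values from -1.23 to -0.85.

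The growth restraint genes diverged. Ddit4 encodes REDD1, which activates the TSC complex and thereby lowers mTORC1 activity, and which hypoxia and glucocorticoids also induce (ENSMUSG00000020108, chromosome 10, 59949669 to 59951834, reverse strand). It was at 300.1 and 310 CPM in saline and at 154 and 152 CPM in vanoxerine. Both vanoxerine libraries lay far below both saline libraries, which were 1.99-fold higher on average. The log2 fold change was -0.996 ± 0.044 (edgeR adjusted p = 4.9e-05), and the call held under each of 16 alternatives. Sesn2 encodes sestrin 2, a leucine sensor that restrains mTORC1 and is also a p53 target (ENSMUSG00000028893, chromosome 4, 132492032 to 132510501, reverse strand). It stood at 46.6 and 48.7 CPM in saline and at 46.7 and 49.1 CPM in vanoxerine. On the CPM scale these groups overlapped almost fully, at a log2 fold change of 0.01 ± 0.06 (edgeR adjusted p = 0.932). Sesn2 was at -0.02 both without saline replicate 1 and without vanoxerine replicate 2. In TPM the groups did not overlap, at 10.84 and 10.84 in saline and 12.64 and 13.08 in vanoxerine. With log2(TPM + 1) the value was 0.23 and was not called (limma adjusted p = 0.111). The median of all genes was 0.126 on that scale.

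The amino acid synthesis genes also split. Asns encodes asparagine synthetase, which makes asparagine from aspartate and glutamine (ENSMUSG00000029752, chromosome 6, 7675169 to 7693254, reverse strand). Its libraries were at 241 and 258 CPM in saline and 157.5 and 159 CPM in vanoxerine, a log2 fold change of -0.66 ± 0.05 (edgeR adjusted p = 2.99e-04). Phgdh encodes phosphoglycerate dehydrogenase, the first enzyme of serine synthesis (ENSMUSG00000053398, chromosome 3, 98313170 to 98339990, reverse strand). It was at 416 and 424 CPM in saline and at 282 and 279.7 CPM in vanoxerine, a log2 fold change of -0.58 ± 0.04 (edgeR adjusted p = 2.02e-04). For both genes all vanoxerine libraries lay below all saline libraries, and the calls held under each of 16 alternatives. Phgdh has 19 near-identical gene copies, most of them processed pseudogenes, which share at least 200 aligned bases at 90% identity or more. These copies together were assigned 88 to 103 reads per library, and the value was -0.58 when their reads were added to Phgdh, a sum chosen after the data were seen.

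Psat1 encodes phosphoserine aminotransferase, which acts right after Phgdh in the same pathway (ENSMUSG00000024640, chromosome 19, 15904678 to 15947337, reverse strand). It stood at 236.5 and 226.5 CPM in saline and at 216 and 217 CPM in vanoxerine. Although the groups did not overlap, the log2 fold change was only -0.10 ± 0.04, and it did not pass the test (edgeR adjusted p = 0.149). Without saline replicate 2 it was called lower at -0.11 (adjusted p = 0.00525), and with log2(TPM + 1) it turned to 0.16 (adjusted p = 0.224).

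Nearly all reads of Psat1 were assigned to 3 transcripts. Psat1-201 and Psat1-205 are protein-coding and start at different first exons, and Psat1-204 is a retained-intron transcript. Psat1-201 was at 38.3 and 38.5 TPM in saline and at 36.3 and 33.4 TPM in vanoxerine. Psat1-205 was at 20.1 and 26.1 TPM in saline and at 33.6 and 39.8 TPM in vanoxerine. Psat1-204 was at 42.1 and 22.6 TPM in saline and at 35.4 and 30.2 TPM in vanoxerine, so its groups overlapped and its saline libraries stood far apart. In saline the log2 ratio of Psat1-205 to Psat1-201 stood at -0.93 and -0.56. In vanoxerine it stood at -0.11 and 0.25. The ratio was higher in both vanoxerine libraries (difference 0.81, two-sided exact permutation p = 0.333, the smallest that 2 against 2 libraries can give). Salmon divides reads between transcripts that share exons by estimate, so this ratio is less certain than the gene's total.

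**Figure D2:**
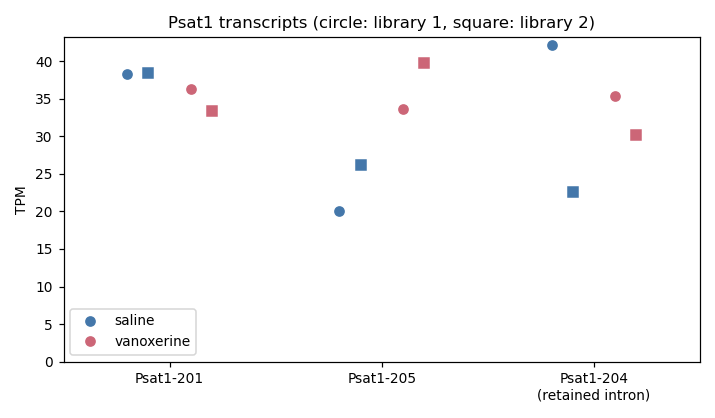
TPM of the 3 main Psat1 transcripts in each library on a linear axis from 0, with saline in blue and vanoxerine in red, and circles and squares for library 1 and library 2. Psat1-205 lies higher in both vanoxerine libraries (33.6 and 39.8 TPM) than in both saline libraries (20.1 and 26.1 TPM), while Psat1-204 overlaps between the groups.

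The genes of glutathione and cystine were low in abundance and were not called. Chac1 encodes an enzyme that cleaves glutathione (ENSMUSG00000027313, chromosome 2, 119351229 to 119354381, forward strand). It was at 16.2 and 14.0 CPM in saline and at 13.0 and 11.9 CPM in vanoxerine. The highest vanoxerine library lay close under the lowest saline library, and the log2 fold change of -0.28 ± 0.12 did not pass the test (edgeR adjusted p = 0.113). Without saline replicate 2 it was called lower (-0.37, adjusted p = 0.00956), as it was with upper-quartile factors (-0.41, adjusted p = 0.0299).

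Slc7a11 encodes xCT, the light chain of the transporter that imports cystine in exchange for glutamate (ENSMUSG00000027737, chromosome 3, 49892526 to 50443614, reverse strand). It was at 64.7 and 54.5 CPM in saline and at 67.5 and 71.3 CPM in vanoxerine. Of the 10 genes it alone had both vanoxerine libraries above both saline libraries on the CPM scale. The log2 fold change of 0.22 ± 0.09 did not pass the test (edgeR adjusted p = 0.106). Without saline replicate 1 it was called higher (0.35, adjusted p = 1.20e-05), and without saline replicate 2 it was 0.11. The annotated Slc7a11-201 transcript, 9223 bases long, holds a stretch that resembles alpha-tubulin transcripts. The 15 genes that share such a stretch held 93026 to 116373 reads per library, far more than Slc7a11 itself, so part of its reads is uncertain.

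**Figure D3:**
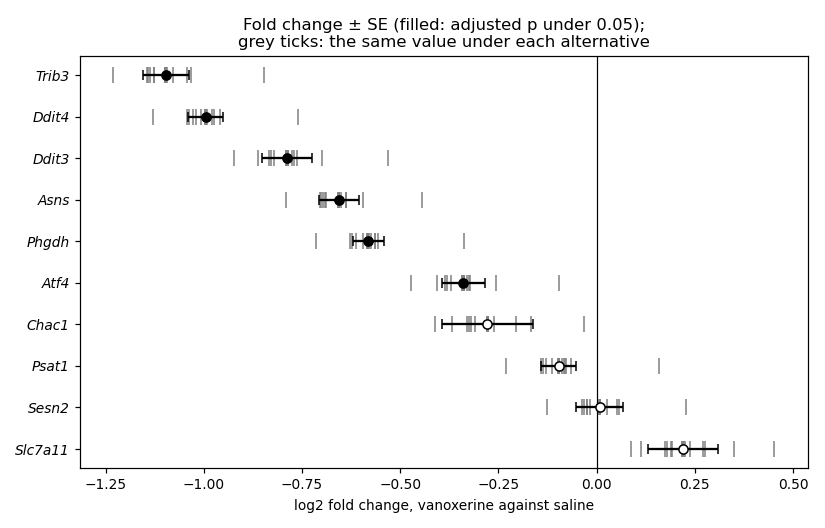
Log2 fold change of each gene in vanoxerine against saline (horizontal axis), with the edgeR value and its SE as points and bars, filled where the adjusted p was under 0.05, and with the 16 alternatives as grey ticks. Trib3, Ddit4, Ddit3, Asns and Phgdh keep every tick below 0, as does Atf4. Chac1, which was not called, also keeps every tick below 0 (-0.41 to -0.03). Slc7a11, not called either, keeps every tick above 0 (0.09 to 0.45). The ticks of Psat1 and Sesn2 lie on both sides of 0.

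Levels between genes were compared per length, in TPM, with Ddit3 on its main identifier. Summed over both identifiers, Ddit3 stood above Atf4 in 3 of the 4 libraries. In saline the order ran from Atf4 (278 TPM) over Phgdh (191), Ddit4 (147), Asns (144), Ddit3 (131), Psat1 (94.3), Trib3 (89.3) and Sesn2 (10.8) to Chac1 (8.08) and Slc7a11 (5.97 TPM). Within this order Ddit4 overlapped with Asns, Asns with Ddit3, and Psat1 with Trib3, and the other neighbours did not overlap between libraries. In vanoxerine the order was Atf4 (260 TPM), Phgdh (151), Asns (105), Psat1 (105), Ddit3 (90.2), Ddit4 (86.5), Trib3 (49.2), Sesn2 (12.9), Slc7a11 (8.52) and Chac1 (7.87 TPM). There Asns and Psat1 overlapped, and no other neighbours did. Ddit4 moved from the third place to the sixth, and Slc7a11 and Chac1 exchanged the last places.

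The median of all genes moved with the scale of the values. The median log2 fold change over all genes tested was 0.126 with log2(TPM + 1), -0.144 with upper-quartile factors and -0.01 in the main test. Relative to that median, Atf4 was at -0.33 in the main test and at -0.22 with log2(TPM + 1), and Psat1 was at -0.09 and 0.03. A ratio between genes of the same library does not depend on such scaling. Trib3 stood at a log2 ratio to Atf4 of -1.61 and -1.66 in the saline libraries. In the vanoxerine libraries it stood at -2.36 and -2.45, a difference of -0.76. Ddit4 fell relative to Atf4 by 0.67, Ddit3 by 0.44, Asns by 0.35 and Phgdh by 0.24 on this log2 scale. Sesn2 was higher relative to Atf4 by 0.34, Psat1 by 0.26 and Slc7a11 by 0.61. For these 8 genes the libraries of the groups did not overlap (two-sided exact permutation p = 0.333 for each, the smallest possible), and for Chac1 they did (difference 0.06, exact permutation p = 1.0). The 9 ratios share Atf4 and are not independent, and no adjusted p from them could pass the threshold.

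**Figure D4:**
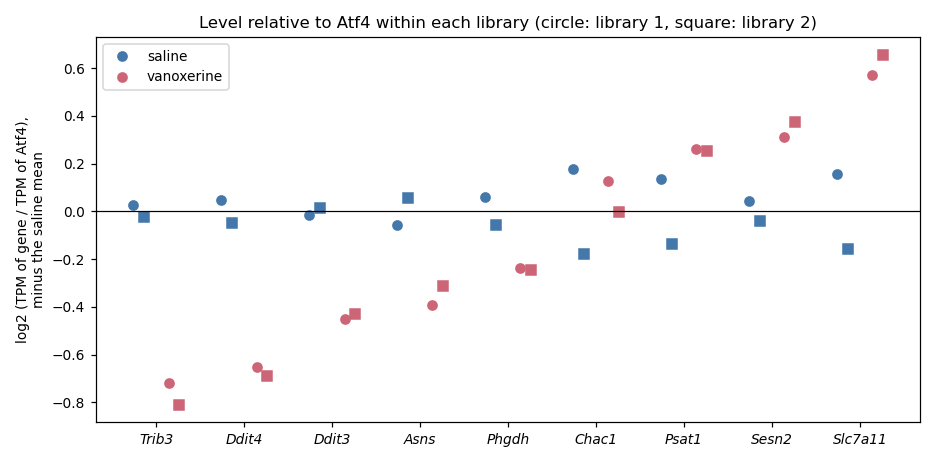
Log2 ratio of the TPM of each of 9 genes to that of Atf4 in the same library, drawn as the distance from the saline mean (vertical axis), with saline in blue and vanoxerine in red, and circles and squares for library 1 and library 2. Trib3, Ddit4, Ddit3, Asns and Phgdh lie lower in both vanoxerine libraries, Chac1 overlaps, and Psat1, Sesn2 and Slc7a11 lie higher.

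Other genes of the pathway were read from the same test. Among all genes tested, 15.9% were called lower and 21.0% higher, and 22.0% lower of those with 10 CPM or more. Of all genes, 2983 were called lower in the main test, 1701 with an offset for average transcript length (length offset) and 870 with log2(TPM + 1). Fewer genes were called without either vanoxerine library too. A smaller list count in these settings does not by itself mean a smaller change. The listed tRNA synthetases, many of which ATF4 induces, fell in 13 of 13 genes (median log2 fold change -0.36), counting the tRNA exporter Xpot. The list does not hold every cytosolic synthetase gene, and those outside it were not counted. Sars, the seryl-tRNA synthetase gene, went from 448 and 463 CPM in saline to 267.5 and 267 CPM in vanoxerine (-0.77 ± 0.04). Lars, the leucyl-tRNA synthetase gene, went from 315 and 319 CPM to 228 and 230.1 CPM (-0.47 ± 0.04). Cars (-0.44 ± 0.05) and Eprs (-0.36 ± 0.04) encode the synthetases for cysteine and for glutamate and proline, and neither was called with log2(TPM + 1) (-0.34 and -0.11). Without vanoxerine replicate 1 or 2 not all 13 were called, at medians of -0.34 and -0.35 with 13 of 13 below 0. With log2(TPM + 1) 3 were called lower. The median was then -0.11, with 11 of 13 below 0 and 13 of 13 below the median of all genes.

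Genes of serine, glycine, folate-linked one-carbon and proline synthesis fell in 9 of 12 and rose in 1, at a median of -0.40. Psph, which completes serine synthesis after Psat1, went from 81.3 and 79.9 CPM to 57.4 and 56.7 CPM (-0.50 ± 0.05). The mitochondrial folate enzyme genes Aldh1l2 (-0.72 ± 0.08) and Mthfd2 (-0.47 ± 0.05) and the proline synthesis gene Aldh18a1 (-0.43 ± 0.05) fell. With log2(TPM + 1) 0 genes of this list were called lower and 1 higher, at a median of -0.11, and Psph (-0.02), Aldh1l2 (-0.36), Mthfd2 (-0.13) and Aldh18a1 (-0.13) were not called. With the length offset Psph (-0.26) and Aldh18a1 (-0.39) were not called either. Without either vanoxerine library 6 were lower, and with the length offset 5 were. Amino acid transporters fell in 5 of 11 and rose in 1, at a median of -0.21, where 15.9% of all genes tested fell and 21.0% rose. The glycine transporter gene Slc6a9 (-0.75 ± 0.07), the neutral amino acid transporter gene Slc1a4 (-0.39 ± 0.06) and Slc7a5 (-0.23 ± 0.04), which encodes the leucine importer LAT1, fell, and the glutamine transporter gene Slc38a1 (0.38 ± 0.06) rose. The median of the transporters turned to 0.10 with log2(TPM + 1), with 2 higher and 1 lower, and Slc7a5 turned with it. Without vanoxerine replicate 1 or 2 only 1 gene was called lower, and neither Slc1a4 (-0.39 and -0.37) nor Slc7a5 (-0.24 and -0.19) was called, nor Slc38a1 without vanoxerine replicate 2 (0.35). With the length offset 2 were lower and 0 higher, with Slc38a1 at 0.21 and Slc7a5 at -0.14, neither called. Slc38a1 (0.45) and Slc1a4 (-0.14) were not called with log2(TPM + 1).

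Upstream of Atf4 the genes went both ways. The group of eIF2alpha kinases, phosphatase subunits and eIF2B rose in 5 of 14 and fell in 6, at a median of 0.04. Of all genes tested, 21.0% were called higher and 15.9% lower. Among the kinases, all of which are named here after their values were seen, Eif2ak3, which encodes PERK, the sensor of unfolded proteins, rose from 25.2 and 27.8 CPM to 40.4 and 40.7 CPM (0.61 ± 0.07). Eif2ak2 (0.36 ± 0.08), which encodes the RNA sensor PKR, and Eif2ak1 (0.31 ± 0.06), which encodes the haem-regulated HRI, rose as well, and Eif2ak4, which encodes the amino acid sensor GCN2, was at 0.08 ± 0.07 (edgeR adjusted p = 0.441). Eif2ak3 was not called with the length offset or with log2(TPM + 1). The phosphatase subunit genes split: Ppp1r15a, an Atf4 target that encodes the stress-induced GADD34, fell from 259 and 270 CPM to 191 and 198 CPM (-0.44 ± 0.05), and Ppp1r15b, which encodes the constitutive CReP, rose from 134 and 124.5 CPM to 197 and 202 CPM (0.63 ± 0.05). Eif2b2, a subunit gene of eIF2B, which recharges eIF2, fell (-0.43 ± 0.06). In the main test the other listed subunit genes of eIF2B were called lower too. They were Eif2b1 (-0.34), Eif2b3 (-0.36), Eif2b4 (-0.34) and Eif2b5 (-0.23), named after their values were seen. In TPM the Eif2b1 libraries of the groups overlapped. Without vanoxerine replicate 1 the group had 3 higher and 2 lower, and without vanoxerine replicate 2 it had 3 and 1. Neither Eif2ak1 (0.30 and 0.34) nor Eif2ak2 (0.36 and 0.38) was then called, nor Eif2b2 without vanoxerine replicate 2 (-0.40) or with log2(TPM + 1) (-0.62). The median of the group turned to -0.10 with upper-quartile factors, -0.01 with library totals, -0.01 with a mean CPM of at least 1 and -0.02 with the length offset. The length offset gave 3 higher and 3 lower, and log2(TPM + 1) gave 5 higher and 1 lower.

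Atf4's partners and other bZIP factors rose in 3 of 10 and fell in 3, at a median of 0.06. Of all genes tested, 21.0% were called higher and 15.9% lower. Atf5, a relative of Atf4 in the mitochondrial stress response, fell from 86.1 and 96.5 CPM to 48.4 and 52.4 CPM (-0.86 ± 0.08), and Cebpb, a binding partner of ATF4, fell (-0.40 ± 0.07). Nfe2l2, which encodes the antioxidant regulator NRF2, rose from 143 and 144.5 CPM to 197 and 199 CPM (0.46 ± 0.04), and Jdp2 rose (0.32 ± 0.06). Cebpb was not called without vanoxerine replicate 1 (-0.36), nor Jdp2 without vanoxerine replicate 1 (0.38) or 2 (0.29). With upper-quartile factors 1 was higher and 5 lower, at a median of -0.07, and Jdp2 (0.19) was not called. The length offset gave a median of -0.06, with Jdp2 (0.26) not called. Without vanoxerine replicate 1, 1 rose and 1 fell, and without vanoxerine replicate 2, 1 rose and 2 fell.

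Further outputs and neighbours of the pathway were counted by list, beside 15.9% of all genes tested called lower and 21.0% higher. Other genes of mTORC1 restraint rose in 3 of 10 and fell in 4, at a median of -0.21. The sestrin genes Sesn1 (0.97 ± 0.12) and Sesn3 (0.70 ± 0.10) rose. Castor2, at 6.58 and 7.89 CPM in saline and 23.4 and 22.4 CPM in vanoxerine, rose as well. Eif4ebp1 (-0.66 ± 0.05), an Atf4 target that encodes the translation repressor 4E-BP1, fell. Without vanoxerine replicate 1 or 2 only 1 gene of this list was called lower, as with log2(TPM + 1). Sesn3 was not called with the length offset (0.35) or with log2(TPM + 1) (0.48), and 2 genes of the list were then called higher. Genes of glutathione synthesis and use fell in 3 of 10 and rose in 0, with 7 not called, at a median of -0.37. They were Gpx4 (-0.64 ± 0.04), which detoxifies lipid peroxides, Ggt1 (-1.37 ± 0.17), which degrades extracellular glutathione, and Gss (-0.43 ± 0.06), which completes glutathione synthesis but was not called without vanoxerine replicate 2 (-0.40) or with log2(TPM + 1) (-0.17). Without saline replicate 2, 5 of the list were lower. The median was -0.19 without saline replicate 1 and without vanoxerine replicate 1, and -0.05 with log2(TPM + 1). Secreted and other stress outputs fell in 5 of 11 and rose in 1, at a median of -0.41. Stc2 (-0.72 ± 0.07), the lipoprotein receptor gene Vldlr (-0.65 ± 0.05), the oxidoreductase gene Ero1l (-0.55 ± 0.07) and the stress cytokine gene Gdf15, at 50.3 and 51.9 CPM in saline and 36.1 and 34.5 CPM in vanoxerine, fell. Without saline replicate 2, 8 were called lower, and with log2(TPM + 1) 3 were, while Stc2 (-0.67) and Vldlr (-0.40) were not. Vldlr was not called with the length offset either (-0.67, adjusted p = 0.0502). The median was -0.25 without saline replicate 1 and -0.08 with log2(TPM + 1). Without vanoxerine replicate 1 or 2, 0 were called higher.

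The ATF6 and XBP1 arms of the unfolded protein response run beside the eIF2alpha arm. Their genes rose in 5 of 14 and fell in 4, at a median of 0.12. Of all genes tested, 21.0% were called higher and 15.9% lower. The sensor genes Ern1 (0.58 ± 0.06) and Atf6 (0.40 ± 0.05) rose. Edem1 (0.45 ± 0.05), which feeds misfolded proteins to degradation, and Dnajc3 (0.36 ± 0.05), a co-chaperone and inhibitor of the eIF2alpha kinases, rose too. The 4 that fell were Hspa5 (-0.15), Hsp90b1 (-0.20), Pdia4 (-0.23) and Creld2 (-0.26), named after their values were seen. With log2(TPM + 1) 8 rose and 0 fell, at a median of 0.36, and without vanoxerine replicate 1 or 2 0 fell, with 5 or 3 higher. Dnajc3 was not called without vanoxerine replicate 2 (0.36). The length offset gave 5 higher and 1 lower, and upper-quartile factors gave 5 and 5 at a median of -0.02. No difference between these lists was tested.

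**Figure D5:**
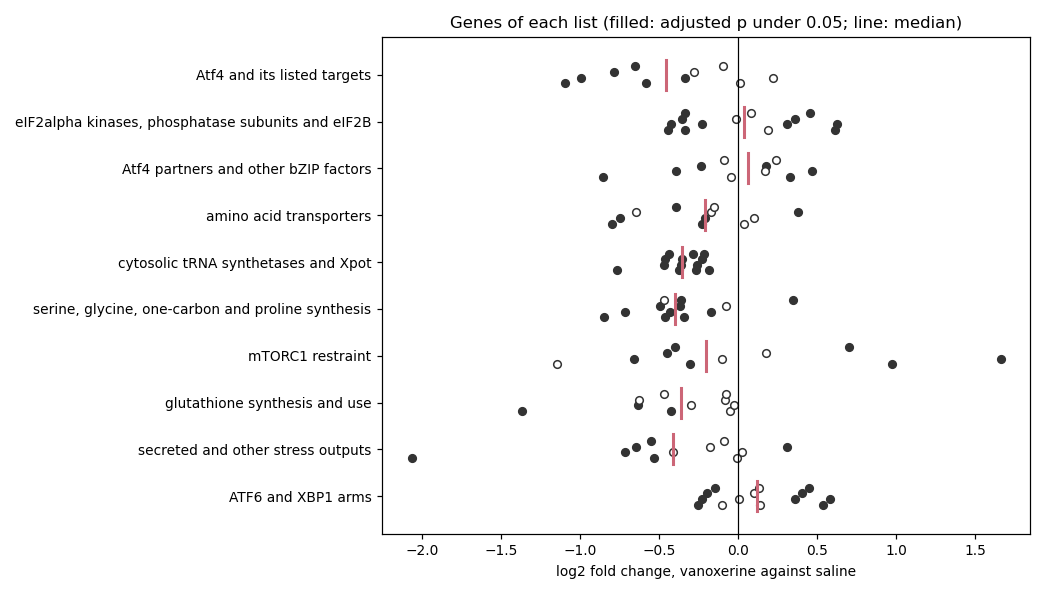
Log2 fold change in vanoxerine against saline (horizontal axis) of each tested gene, with 1 row for Atf4 and its listed targets and 1 row for each of 9 other gene lists; filled points passed the adjusted p threshold and red lines are medians. All 13 genes of the tRNA synthetase list lie below 0. The list of eIF2alpha kinases, phosphatase subunits and eIF2B spreads to both sides, with a median of 0.04 and its kinases above 0.

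The authors' deposited table gave the same signs for the 10 genes. In the authors' deposited table the log2 fold change was -1.08 ± 0.09 (SE) for Trib3, -0.99 ± 0.07 for Ddit4, -0.75 ± 0.10 for Ddit3, -0.67 ± 0.11 for Asns, -0.57 ± 0.07 for Phgdh and -0.32 ± 0.08 for Atf4. In the authors' deposited table the adjusted p of these 6 genes was highest for Atf4, at 1.36e-04. Slc7a11 was at 0.27 ± 0.12 (adjusted p = 0.0522), Chac1 at -0.23 ± 0.18, Psat1 at -0.07 ± 0.09 and Sesn2 at 0.01 ± 0.10 in the authors' deposited table, none with an adjusted p under 0.05. That table rests on the same 2 groups and is not independent of the values above.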

How the data were processed

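Total RNA of frozen MC38 tumours was sequenced from TruSeq RNA v2 libraries, per the labels' protocols. Per the submitters' processing notes, fastp, Salmon 1.3.0 and DESeq2 were used with GRCm38 (annotation and settings not stated). The authors deposited Salmon's estimated counts (not normalized), TPM and effective lengths for 140992 transcripts per library. Their deposited table of the comparison holds, per the file headers, a base mean (signal averaged over libraries), log2 fold changes with SE, and p-values; its 4 per-library columns have names that match no sample and were not used.

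Transcripts were assigned to genes with GENCODE M21 (139791 of 140992, with at least 99.56% of reads). Estimated counts were summed per gene and rounded. The test was edgeR 4.0.16 under R 4.3.3 (TMM, minimum count 10, minimum total 15, quasi-likelihood, no block), with Benjamini-Hochberg adjustment over all 18758 genes and a threshold of 0.05. It was also run on simulated counts with balanced changes in few genes, which did not check the scaling. The SE comes from the F statistic. Alternatives included DESeq2 1.42.0 and, with limma 3.58.1, voom and log2(TPM + 1). Another was the main fit read at an adjusted p under 0.1, where no call could be lost. Promoter sequences are from RefSeq.

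The genes and lists were chosen with earlier results of these data known. Besides the 10 genes, the text names from each list up to 4 called genes with the smallest p; the others it names were chosen after their values were seen.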

Additional observations from a re-analysis of the deposited data

How the results depend on the processing

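The count of genes called, 6916, was 4305 with the average transcript length offset and 3107 to 9708 with 1 library left out, where the lone library of a group borrows its spread from the other group. The 10 stress genes gave 6 calls, and 5 to 8 with 1 library left out. The share of all calls that were higher was 56.9%, and it was 39.0% with upper-quartile factors and 82.5% with log2(TPM + 1). Of the 35 list genes named for their smallest p, 17 kept their call and direction under all 16 alternatives. The other 18 did not, 15 of them with log2(TPM + 1). Among these 35, the 10 stress genes and the eIF2alpha kinases, Psat1 (0.16) and Slc7a5 (0.10) turned sign with log2(TPM + 1). Eif2ak4 (-0.053) and Sesn2 (-0.13) turned with upper-quartile factors. Sesn2 also turned with library totals (-0.038), a mean CPM of at least 1 (-0.033) and protein-coding genes only (-0.024). With 1 library left out Sesn2 ranged from -0.024 to 0.056, and with log2(TPM + 1) it was 0.23. The cause was not tested. Slc7a11 was also called without the low-count filter (0.24), and Psat1 with upper-quartile factors (-0.23), a mean CPM of at least 1 (-0.14) and protein-coding genes only (-0.13). The labels do not state whether same-numbered libraries are paired. No shared deviation of such libraries was seen, as their deviations correlated at -0.05 across 9871 genes. With the replicate block 6391 genes were called, and the calls of the 10 genes did not change.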
